A study of Mus musculus with 435 samples.

Results

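Cyclin-dependent kinase inhibitors and the retinoblastoma (Rb) family hold cells before S phase, and 8 of these genes were followed through fetal testis development. They were found by name, 8 of 8, among the 16459 genes of the expression table: the Cip/Kip inhibitors Cdkn1a (p21), Cdkn1b (p27) and Cdkn1c (p57), the INK4 inhibitors Cdkn2c (p18) and Cdkn2d (p19), and the pocket proteins Rb1, Rbl1 (p107) and Rbl2 (p130). The cells were green-fluorescent, Draq7-negative single cells of XY mouse gonads at 5 stages, from E10.5 by way of E11.5, E12.5 and E13.5 to E16.5, all with the NR5A1-eGFP genotype on a mixed background and with no other allele or treatment named. The reporter marks cells that express Nr5a1, a transcription factor of the gonadal somatic lineage, so other gonadal cells are represented here only as far as they passed the sort. Each cell was captured in a microfluidic chip, and its messenger RNA was read as RPKM, reads scaled to exon length in kilobases and to sequencing depth.

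INK4 proteins bind CDK4 and CDK6 and keep them from pairing with D-type cyclins, while Cip/Kip proteins bind cyclin and kinase together and act mostly on the kinases of the G1/S step and later. Unphosphorylated pocket proteins bind E2F factors and repress genes of DNA replication and mitosis, and phosphorylation by the kinases releases them. Rbl1 and Rbl2 are also the pocket proteins of the DREAM repressor complex. Several of these regulators are controlled mainly after transcription, Cdkn1b by SCF-Skp2 degradation and the pocket proteins by phosphorylation, which RNA levels do not read.

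There were 9 captures, 1 at E10.5 and 2 at each later stage, with 30 to 59 cells each and 396 cells in all. The capture was taken as the replicate. The submitters describe the 2 captures of a stage as independent but do not give the number of embryos in each, so p-values measure the spread between captures. Sequencing depth, read from the smallest steps in the values, had capture medians of 7.84 to 8.06 M reads at E10.5 and E13.5 and of 2.20 to 3.24 M reads at the other stages, which were sequenced in another run. At these depths 1 RPKM corresponded to 4.49 to 16.4 reads of Cdkn1c and to 13.2 to 48.5 reads of Rb1. Marker genes of Sertoli cells had a summed mean over 10 genes of 78 to 192 RPKM in the captures of E10.5 and E11.5, 707 and 731 RPKM at E12.5, 3920 and 1141 RPKM at E13.5, and 2742 and 3673 RPKM at E16.5. The E13.5 captures thus lay on either side of the E16.5 captures. The second E12.5 capture stood apart in germ cell markers, with a summed mean of 97.4 RPKM over 7 genes against 0.826 to 13 RPKM in the other captures, and 13 of its 37 cells fell into a germ-like cluster.

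Cdkn1c, an imprinted inhibitor expressed from the maternal allele, had the highest mean level of the 8 genes at every stage. At E16.5 the margin over Cdkn2d was small, with stage means of 24.8 and 21.8 RPKM. Cdkn1c was the one member called between stages. The other 7 did not pass the test, which does not show that they did not differ. Its mean over cells was 337 RPKM at E10.5, 367 and 440.4 RPKM in the E11.5 captures, 124 and 102 RPKM at E12.5, 113 and 232 RPKM at E13.5, and 24.9 and 24.7 RPKM at E16.5. Both E16.5 captures lay below all 7 earlier ones, and both E11.5 captures lay above all other captures. Cdkn1c was lower at E16.5 than at E13.5 by a log2 difference of -2.66 ± 0.36 (SE; adjusted p = 0.0167, limma with Benjamini-Hochberg adjustment over 12313 genes, on log2(mean RPKM + 1)). That comparison called 0.0893% of genes, 4 higher and 7 lower. Against E12.5, which was sequenced in the same run as E16.5, the log2 difference was -2.14 ± 0.36 (SE; adjusted p = 0.0308 in limma, 0.0132 with the captures of that run alone), in a comparison that called 0.357% of genes and 0.332% with that run alone. E13.5 and E16.5 lay in different runs, so the run and the stage cannot be told apart there. Leaving out 1 capture at a time ended each call in 6 of 9 fits, with the log2 difference still between -3.18 and -2.14 against E13.5 and between -2.27 and -2.0 against E12.5. Against E13.5 these were the fits without either E16.5, either E12.5, the second E11.5 or the second E13.5 capture (adjusted p up to 0.195), and against E12.5 those without either E16.5, E12.5 or E11.5 capture (adjusted p up to 0.203, limma). Without the filter on low values the adjusted p-values were 0.217 and 0.206.

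The share of cells with Cdkn1c was also lowest at E16.5, described here with no test. Cells at 1 RPKM or more were 58 of 59 at E10.5, 51 of 52 and 41 of 41 in the E11.5 captures, 25 of 30 and 30 of 37 at E12.5, 42 of 56 and 44 of 56 at E13.5, and, in the E16.5 captures, 8 of 31 and 12 of 34. The E16.5 shares were 25.8% (95% Wilson interval 13.7 to 43.2%) and 35.3% (21.5 to 52.1%), and intervals here cover counting error only. Among the cells above 1 RPKM the median was 302 RPKM at E10.5, 122 to 142 RPKM in the E13.5 captures, and 44.7 and 42.5 RPKM at E16.5. So at E16.5 fewer cells held the transcript at 1 RPKM, and those cells had lower values. A single cell made up 44.2% of the summed Cdkn1c of the first E16.5 capture and 32.3% of that of the second. Cells stood far apart within a capture: at E13.5 the lowest, median and highest values were 0, 72.6 and 541 RPKM in the first capture and 0.0649, 89.9 and 2281 RPKM in the second.

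**Figure D1:**
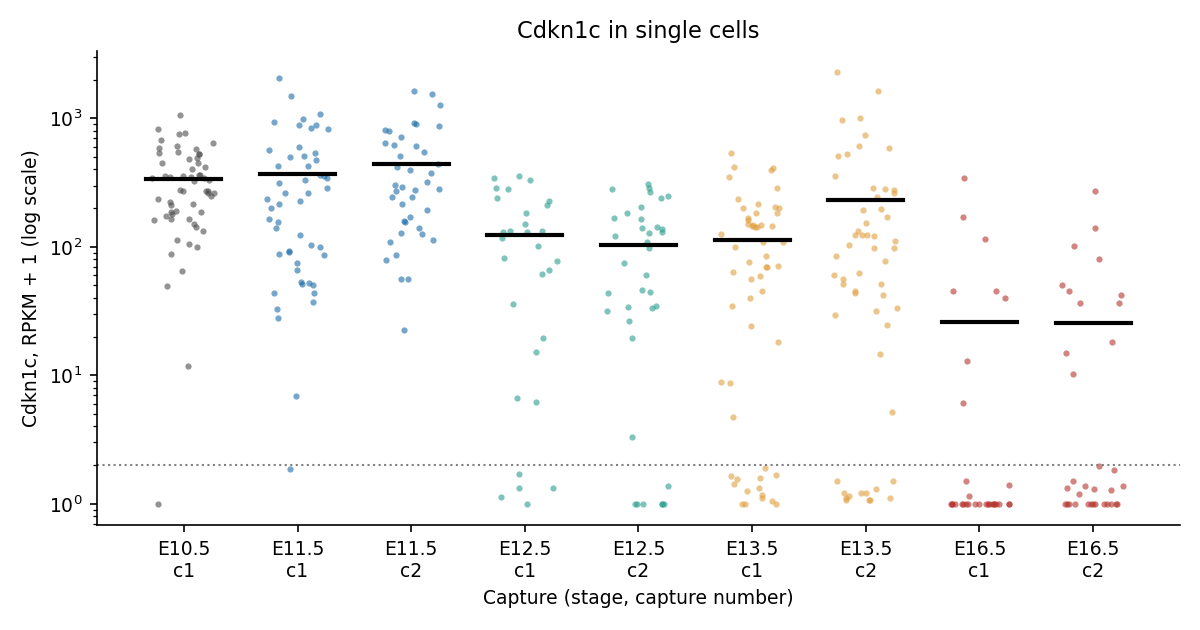
Cdkn1c in each of 396 cells by capture, as RPKM + 1 on a log axis, with black bars at the capture mean and a dotted line at 1 RPKM. Cells near the bottom are few at E10.5 and E11.5 and form the larger part of both E16.5 captures, whose means are 24.9 and 24.7 RPKM.

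The step from E11.5 to E12.5 had a log2 difference of -1.83 ± 0.36 (SE) for Cdkn1c that did not pass adjustment (adjusted p = 0.231 in limma, 0.125 with the captures of the 10 M read run alone), although the captures of the stages did not overlap. No gene was called in that comparison (0%), and 961 of 12313 genes had an unadjusted p under 0.05. E13.5 against E12.5 also called no gene (0%, 563 at an unadjusted p under 0.05). E11.5 against E10.5 called 0.39% of genes and E13.5 against E10.5 called 1.06%, with none of the 8 members in either. Cdkn1c passed between E13.5 and E10.5 when log2 values were averaged over cells (-2.60, adjusted p = 0.0377 in limma, 1.93% of genes called), against -1.05 ± 0.44 (SE; adjusted p = 0.476) on the log2 of the mean. With its 1 capture, E10.5 was given the spread of the later stages. Cdkn1c lies at chr7:143458339-143461050 on the minus strand (GRCm38), and the predicted antisense gene Gm44732 covers 30.7% of its exonic bases. The library kit does not keep the strand, so reads of the 2 cannot be told apart over that stretch.

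Cdkn1b, a ubiquitous inhibitor of cyclin E and cyclin A complexes, stayed at a few RPKM throughout. Its mean was 3.86 RPKM at E10.5, 2.29 and 2.41 RPKM at E11.5, 2.03 and 0.922 RPKM at E12.5, 1.38 and 2.56 RPKM at E13.5, and 2.26 and 3.62 RPKM at E16.5. The E10.5 capture was the highest, both E12.5 captures lay below those of E11.5 and E16.5, and E13.5 overlapped all 3 of these stages. Cells with Cdkn1b were 59.3% of the E10.5 capture, 19.6% and 30.4% of the E13.5 captures and 48.4% and 50% of the E16.5 captures, so that the share was lower at E13.5 than at either end. The difference in level from E13.5 to E16.5 was 0.41 ± 0.65 on the log2 scale (SE; adjusted p = 0.892, limma).

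Cdkn1a, the p53-inducible inhibitor, was rare and uneven. It reached 1 RPKM in 0 of 59 cells at E10.5, a count of 0 that allows a share of up to 5.08%, in 7 of 52 and 7 of 41 cells at E11.5, in 4 of 30 and 7 of 37 at E12.5, in 3 of 56 in each E13.5 capture, and in 3 of 31 and 1 of 34 at E16.5. The capture means were 0.00294 RPKM at E10.5, 6.0 and 9.54 RPKM at E11.5, 1.01 and 3.98 RPKM at E12.5, 0.576 and 0.540 RPKM at E13.5, and 5.66 and 5.23 RPKM at E16.5. Single cells carried much of these means: 1 cell held 88% of the summed Cdkn1a of the first E16.5 capture and 99.5% of that of the second. The difference between E11.5 and E10.5 was 3.10 ± 0.83 on the log2 scale (SE; adjusted p = 0.241, limma), and between E16.5 and E13.5 it was 2.05 ± 0.68 (adjusted p = 0.413). Both missed the threshold. The 3 captures of the run with E10.5 and E13.5 all had lower Cdkn1a means than the 6 of the other run, so run and stage cannot be told apart here.

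The INK4 gene Cdkn2d was present in a minority of cells, at high levels where it was present. Capture means were 20.8 RPKM at E10.5, 19.6 and 26.2 RPKM at E11.5, 16.1 and 36.4 RPKM at E12.5, 29.1 and 5.60 RPKM at E13.5, and 21.6 and 22.1 RPKM at E16.5. The second E13.5 capture was the lowest and the second E12.5 capture the highest, and no stage stood clear of the others. Cdkn2d reached 1 RPKM in 110 of 396 cells (27.8%), with a median of 49.5 RPKM among those cells. Between stages its log2 differences ran from -0.84 to 0.70, and none passed the test.

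Cdkn2c, the other INK4 gene in the table, was found at 1 RPKM or more in 8 of 396 cells (2.02%; 95% Wilson interval 1.03 to 3.94%). These were 2 and 1 cells of the E11.5 captures, 2 and 1 of the E13.5 captures and 1 of each E16.5 capture, and neither the E10.5 capture nor an E12.5 capture had any. The highest cell, at E16.5, had 231 RPKM and made up 46.1% of all Cdkn2c RPKM. The INK4 genes Cdkn2a and Cdkn2b are not among the rows used here.

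Among the pocket proteins, Rb1 was the most widely detected. Its means were 4.69 RPKM at E10.5, 4.90 and 3.45 RPKM at E11.5, 3.12 and 5.73 RPKM at E12.5, 5.60 and 3.46 RPKM at E13.5, and 3.01 and 3.86 RPKM at E16.5. The captures of every stage overlapped those of the next, and Rb1 reached 1 RPKM in 213 of 396 cells (53.8%). None of its log2 differences between stages exceeded 0.30 in size or passed the test.

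Rb1 (chr14:73183673-73325822, minus strand, GRCm38) shares 408 exonic bases with Lpar6, a lysophosphatidic acid receptor gene read from the opposite strand inside Rb1, and 488 with Rcbtb2, which is read from the opposite strand too. Across the 396 cells, centred within captures, Lpar6 and Rcbtb2 were the 2 genes most correlated with Rb1 (Pearson r = 0.72 and 0.37). Reads over shared exons cannot be assigned to a strand here. Rb1 values may therefore include reads of these neighbours, and theirs may include reads of Rb1.

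Rbl1, whose protein binds mainly the repressor E2Fs, was found in fewer cells. Its means were 2.80 RPKM at E10.5, 2.10 and 3.64 RPKM at E11.5, 1.54 and 8.62 RPKM at E12.5, 2.72 and 2.09 RPKM at E13.5, and 12 and 8.76 RPKM at E16.5. Both E16.5 captures lay above all earlier ones, the second by a small margin over the second E12.5 capture, which held most of the germ-like cells. The log2 difference between E16.5 and E13.5 was 1.73 ± 0.72 (SE), with an adjusted p of 0.541 in limma. Rbl1 reached 1 RPKM in 71 of 396 cells (17.9%), and its share of 22.6% and 23.5% at E16.5 was within the range of the earlier captures, 10.7% to 35.1%.

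Rbl2, the pocket protein associated with quiescent cells, had means of 1.48 RPKM at E10.5, 1.76 and 4.61 RPKM at E11.5, 1.98 and 0.518 RPKM at E12.5, 1.08 and 5.39 RPKM at E13.5, and 4.64 and 4.27 RPKM at E16.5. The 2 E13.5 captures nearly spanned the whole range, so no stage stood clear. It was found in 108 of 396 cells (27.3%). Rbl2 shares 693 exonic bases with Aktip and 892 with the predicted gene Gm45464, both on the opposite strand. Gm45464 is not among the genes of the expression table. Aktip was the gene most correlated with Rbl2 across cells (r = 0.44).

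The RefSeq promoter windows of the members (GRCm38.p6) could be matched for 6 of 8, all but Cdkn1c and Rb1. They were searched on both strands for the E2F words TTTCCCGC, TTTCGCGC, TTTGCCGC and TTTGGCGC, and for the cell cycle homology (CHR) words TTTGAA and TTCGAA, through which the DREAM complex binds mitotic genes. The words do not overlap one another. Of 32851 promoters 2.26% held an E2F word and 19.2% a CHR word. Rbl1 held the one E2F word found among the members, 18 bases before its start site, and Rbl2 held 1 CHR word, 201 bases before its start site. Rbl1 (chr2:157204485-157204784, minus strand) is shown because Top2a, a gene of dividing cells, was the gene most correlated with it across cells, and Top2a (chr11:99024140-99024439, minus strand) is shown beside it with its 4 CHR words. Words found are in capitals, and a match is only a match of letters.
Rbl1: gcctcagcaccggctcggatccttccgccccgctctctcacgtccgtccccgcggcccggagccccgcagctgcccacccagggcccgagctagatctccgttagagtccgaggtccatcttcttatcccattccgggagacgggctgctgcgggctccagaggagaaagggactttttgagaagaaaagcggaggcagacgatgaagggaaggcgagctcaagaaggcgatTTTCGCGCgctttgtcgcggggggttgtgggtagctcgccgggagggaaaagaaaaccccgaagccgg
Top2a: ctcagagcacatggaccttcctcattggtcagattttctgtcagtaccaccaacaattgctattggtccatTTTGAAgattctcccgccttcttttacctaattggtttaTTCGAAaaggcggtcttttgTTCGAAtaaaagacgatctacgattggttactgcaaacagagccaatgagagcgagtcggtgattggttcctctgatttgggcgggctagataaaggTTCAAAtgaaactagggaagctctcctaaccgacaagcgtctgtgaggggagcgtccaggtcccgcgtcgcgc

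By mean of the capture means the 8 genes were ordered Cdkn1c (196 RPKM), Cdkn2d (21.9 RPKM), Rbl1 (4.92 RPKM), Rb1 (4.2 RPKM), Cdkn1a (3.61 RPKM), Rbl2 (2.86 RPKM), Cdkn1b (2.37 RPKM) and Cdkn2c (1.32 RPKM). Every pair of neighbours in this order overlapped in the range of its captures. For Cdkn1c, whose lowest capture had 24.7 RPKM, the overlap with Cdkn2d, whose highest had 36.4 RPKM, came only from E16.5. Ordered by share of cells Cdkn1c (78.5%), Rb1 (53.8%) and Cdkn1b (39.1%) led, so Cdkn1b and Rb1 were widespread at low levels while Cdkn2d was high in a minority of cells.

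**Figure D2:**
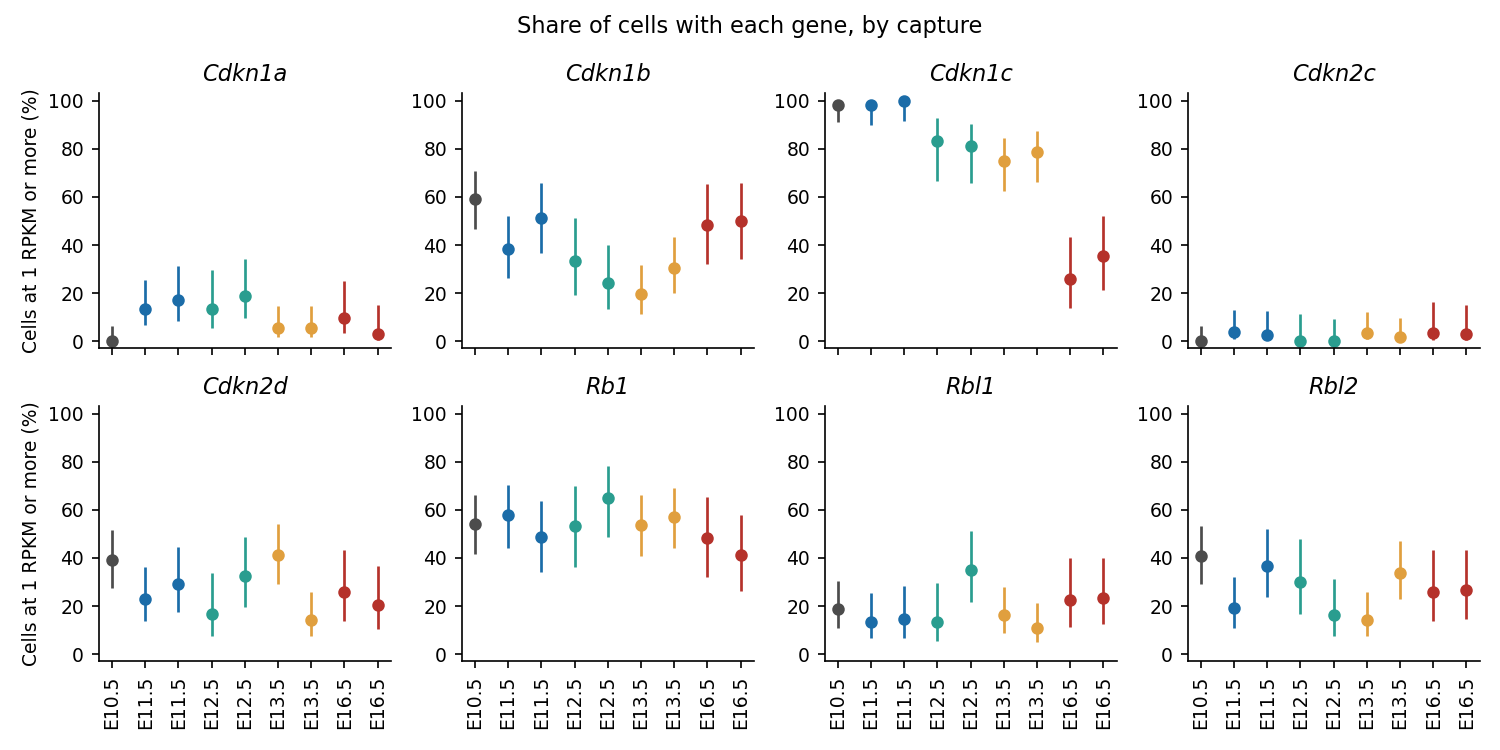
Percent of cells at 1 RPKM or more for each of the 8 genes, 1 point per capture coloured by stage, with 95% Wilson intervals. Cdkn1c goes from 98.3% at E10.5 to 25.8% and 35.3% at E16.5, while Rb1 stays between 41.2% and 64.9% and Cdkn2c at or below 3.85%.

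Cdkn1c was the inhibitor with the highest RPKM in most early cells and in a minority of E16.5 cells. The cells it led were 96.6% of those at E10.5, 94.2% and 90.2% of E11.5 cells, 76.7% and 70.3% of E12.5 cells, 66.1% and 76.8% of E13.5 cells, and 22.6% and 35.3% in the E16.5 captures. At E16.5 Cdkn1b led in 19.4% and 23.5% of cells and Cdkn2d in 22.6% and 11.8%, while 25.8% and 23.5% of cells had none of the 5 inhibitors at 1 RPKM. Cdkn1c made up 93.2% of the summed mean RPKM of the 5 inhibitors at E10.5 and 45.5% and 39.6% at E16.5.

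In the E16.5 captures the cells without Cdkn1c did not have a uniformly higher share of Cdkn1b. Cdkn1b was found in 12 of 23 such cells against 3 of 8 cells with Cdkn1c in the first capture, and in 10 of 22 against 7 of 12 in the second. The 2 captures went in opposite directions. Over all stages no pair of the 8 genes had a correlation across cells above 0.119 in size, centred within captures, and that value was for Cdkn1b with Cdkn2d.

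**Figure D3:**
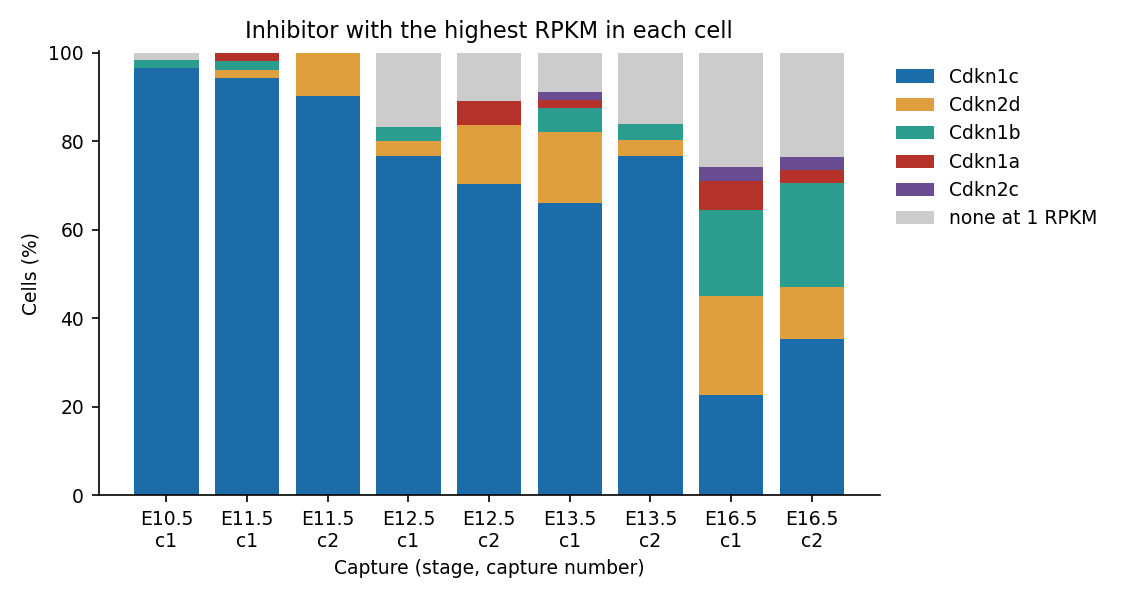
Percent of cells in which each of the 5 inhibitors has the highest RPKM, as stacked bars by capture, with cells that have none at 1 RPKM in grey. The Cdkn1c part is 96.6% at E10.5, and it is 22.6% and 35.3% in the E16.5 captures, where the grey part is 25.8% and 23.5%.

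To set the 8 genes against division in the same cells, cells were classed by Mki67, a nuclear protein of cycling cells, and Top2a, the topoisomerase of S, G2 and M phase. Both genes were at 1 RPKM or more in 135 cells, called dividing, and both were below it in 166 cells, called non-dividing. The names follow these transcripts alone. Cells called non-dividing may include cycling cells in G1 and cells whose transcripts were missed, so they are not a class of arrested cells. The 24 cells with Mki67 alone and the 71 with Top2a alone were left out. In 8 captures each class had at least 5 cells, and the second E12.5 capture, with 2 non-dividing cells, was not used. Dividing cells had more detected genes, with medians of 6262 against 5360 over all captures. The part of that difference in the shares below was not tested, but it moves with them: over 12654 genes the median gene was found in 3.17 percentage points more of the dividing cells.

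Members of both inhibitor families were present in dividing cells, and no member passed the test on levels. The comparison, blocked by capture, called 1.78% of 12654 genes, 211 higher and 14 lower in dividing cells, and 0 of 8 members. Rbl1 differed by 1.23 ± 0.47 on the log2 scale (SE; adjusted p = 0.353, limma), Cdkn2c by 1.46 ± 0.50 (adjusted p = 0.272) and Cdkn2d by 1.44 ± 0.64 (adjusted p = 0.449). When log2 values were averaged over cells instead, Rbl1 (0.73, adjusted p = 0.0314) and Cdkn2d (1.16, adjusted p = 0.0484) passed in limma, in a setting that called 5.09% of all genes and had a median difference over all genes of 0.11. The remaining differences were 0.51 ± 0.38 for Rb1, 0.22 ± 0.38 for Cdkn1b, -0.11 ± 0.45 for Rbl2 and -0.77 ± 0.72 for Cdkn1a, with adjusted p-values of 0.679 to 0.955 in limma.

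By capture, Cdkn1c was found in 73.9% ± 27.2 of dividing cells and in 73.2% ± 36.7 of non-dividing cells (SD, n = 8 captures). The share was higher in dividing cells in 3 captures and lower in 3. Pooled over all 9 captures, with the second E12.5 capture included, it was 78.5% of 135 and 78.9% of 166 cells. The mean level of Cdkn1c was lower in the dividing cells of 6 of 8 captures. In dividing and non-dividing cells it was 289 and 451 RPKM at E10.5, 323 and 320.1 RPKM and 235 and 529 RPKM at E11.5, 74.8 and 139 RPKM in the first E12.5 capture, 63.5 and 159 RPKM and 113 and 308 RPKM at E13.5, and 8.75 and 12 RPKM and 25.6 and 9.07 RPKM at E16.5. The second E16.5 capture went clearly the other way, and the first E11.5 capture showed almost no difference. The 2 classes also held unlike mixes of the cell clusters described below. Sertoli-like cells were 10 of 21 dividing and 6 of 29 non-dividing cells in the first E13.5 capture. In the second E13.5 capture they were 1 of 11 and 6 of 32. Cluster 6 cells were 2 of 8 and 16 of 28 in the second E11.5 capture. The part of these mixes in the Cdkn1c levels was not tested. Over all 8 captures the log2 difference was -0.56 ± 0.27 (SE; adjusted p = 0.49, limma). Without the second E16.5 capture it was -0.84 and passed (adjusted p = 0.0353, limma, 1.65% of genes called), and over all 18 alternatives the adjusted p ran from 0.0353 to 0.984.

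Cdkn1b and Rbl2 were found in a larger share of dividing than of non-dividing cells in 8 of 8 captures, which 5.09% of 12654 genes did, while 0.0948% were found in a smaller share in every capture. For Cdkn1b the mean over captures was 58.7% ± 13.9 of dividing cells and 36% ± 15.4 of non-dividing cells (SD, n = 8 captures), with a median difference of 24.4 percentage points. For Rbl2 it was 32.8% ± 9.74 and 23.2% ± 10.8, with a median difference of 5.67 points. The median difference was larger than that of 96.6% of the 12654 genes for Cdkn1b, but of only 61.2% for Rbl2. That ranking was not matched for detection, and genes found in nearly all or nearly no cells cannot differ by much. The mean level of Cdkn1b was higher in dividing cells in 5 captures and lower in 3. The mean level of Rbl2 was lower in dividing cells in 5 captures and higher in 3. By share, Rbl1 was higher in 7 captures and equal in 1, at 26.8% ± 7.35 and 9.06% ± 7.02, while Cdkn2d was higher in 6 of 8, at 42.6% ± 12.2 and 19.2% ± 15.7. Rb1 was higher in 6 of 8 captures, and the 2 exceptions were the E16.5 captures, where it was found in 36.4% and 35.7% of dividing cells and in 71.4% and 38.5% of the others. Cdkn1a was higher in 3 captures and lower in 3.

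All 8 cells with Cdkn2c at 1 RPKM or more were dividing cells. That is 8 of 135 (5.93%; 95% Wilson interval 3.03 to 11.3%), against 0 of 166 non-dividing cells, which allows a share of up to 1.81%, and 0 of the 95 cells with Mki67 or Top2a alone. The 8 cells came from 6 captures. These counts pool cells over captures, including the second E12.5 capture, so the interval covers counting error only. By capture, the share was higher in dividing cells in 6 of 8 captures, with a median difference of 9.09 percentage points. That difference was larger than that of 73.5% of the genes tested. Dividing cells also had more detected genes, and how many equally rare genes were found only in dividing cells was not tested. The 3 genes most correlated with Cdkn2c across the 396 cells were the mitotic genes Kif11 (r = 0.28), a spindle motor, Nuf2 (r = 0.28), a kinetochore subunit, and Ccnb1 (r = 0.28), the mitotic cyclin. These correlations rest largely on the same 8 dividing cells, so they are not a separate observation.

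**Figure D4:**
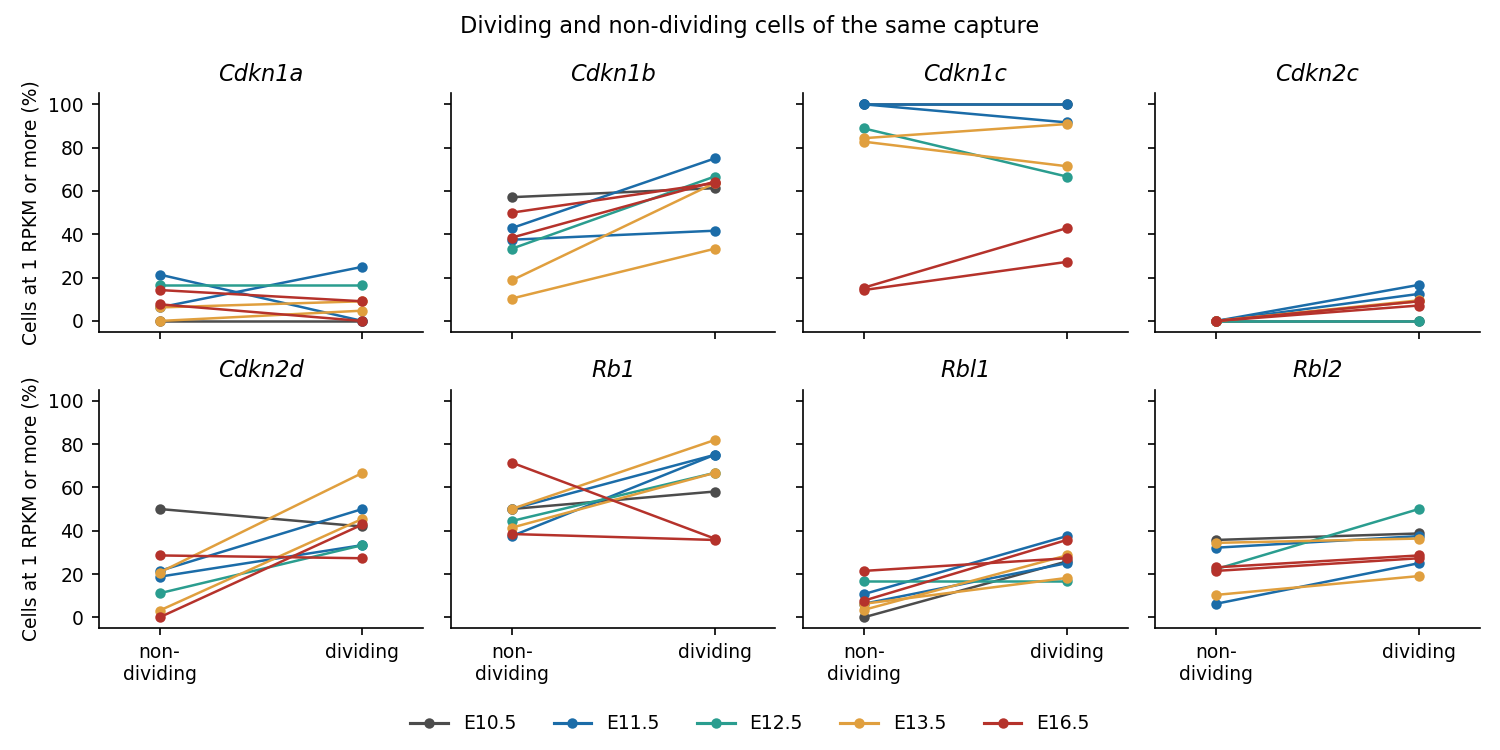
Percent of cells at 1 RPKM or more among non-dividing and dividing cells, with the 2 values of each of 8 captures joined by a line and coloured by stage. Lines for Cdkn1b and Rbl2 go up in all 8 captures, those for Cdkn1c go both ways, and Cdkn2c is at 0 in every non-dividing class.

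The kinases, cyclins and targets around the members differed between the same cells to unequal extents. Of 10 mitosis genes 10 were higher in dividing cells, with a median log2 difference of 4.81 against -0.09 over all genes tested, led by the spindle proteins Nusap1 (5.70 ± 0.39, SE) and Tpx2 (5.02 ± 0.36). Of 10 S to M cyclins, kinases and phosphatases 8 were higher, among them Ccnb1 (5.18 ± 0.45) and Ccna2 (3.74 ± 0.42). These lists sit close to the markers that define the classes, so a difference in them was largely built into the classes. Smaller parts of other lists passed. Of 15 replication targets of E2F 4 were higher, including the ribonucleotide reductase subunit Rrm2 (3.48 ± 0.31) and the thymidylate synthase Tyms (1.95 ± 0.33). Of 8 DREAM and MuvB partners 3 were higher (Foxm1, 3.20 ± 0.49, Mybl2, 2.25 ± 0.52, and Lin52, 2.21 ± 0.39). Of 10 E2F and DP factors 2 were higher, the repressors E2f8 (2.77 ± 0.46) and E2f7 (2.10 ± 0.46). How far differences in these lists were built into the classes too was not tested.

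Of 8 G1 cyclins and kinases only Ccne2, an E-type cyclin, was higher (2.31 ± 0.48). In the list on Cip/Kip turnover 3 of 10 were higher: Skp2, the F-box protein that marks p27 for degradation (1.54 ± 0.36), its cofactor Cks1b (1.31 ± 0.15) and Cks2 (3.26 ± 0.32). None of 14 tested p53 genes and none of 11 immediate early genes passed, with Trp53 at 0.04 ± 0.15 and Fos at -0.38 ± 0.19. No gene of these 9 lists passed in any comparison between stages, where Mki67 was found in 23.3% to 62.7% of the cells of a capture and Top2a in 26.8% to 94.6%.

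Across the cells of a capture, members followed Mki67 and Top2a weakly. The median Pearson r over 9 captures with Mki67 was 0.32 for Cdkn2d, 0.17 for Cdkn1b, 0.15 for Rb1 and 0.13 for Rbl1, and it was 0.09 for Rbl2, 0.00156 for Cdkn1c and -0.08 for Cdkn1a. With Top2a it was 0.23 for Rbl1 and for Cdkn2d, 0.15 for Rb1, 0.08 for Cdkn1b, 0.05 for Rbl2, -0.10 for Cdkn1a and -0.13 for Cdkn1c, which was negative in 7 of 9 captures. For Cdkn2c, which had values in 7 captures and few cells in each, the medians were 0.30 with Mki67 and 0.28 with Top2a. These are descriptions over 30 to 59 cells that share a chip, and the same genes followed the number of detected genes as well (median r = 0.26 for Cdkn2d, 0.21 for Rbl1 and 0.18 for Cdkn1c).

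Other genes most like the members across cells, by the same centred correlation, were found for each. For Cdkn1c they were Igf2 (r = 0.29), an imprinted growth factor gene of the same chromosomal region, Ifitm2 (r = 0.25) and Eif3h (r = 0.24). Cdkn2d was followed by Nusap1 (r = 0.27), Fam166a (r = 0.27) and Cdk1 (r = 0.25), and Rbl1 by Top2a (r = 0.25), Pbk (r = 0.23) and Kif15 (r = 0.22), genes of the mitotic machinery except for Fam166a. Cdkn1b had Fbxo21 (r = 0.24), Sgol1 (r = 0.21) and Pvrl3 (r = 0.20), and Cdkn1a had Apopt1 (r = 0.23), Pced1b (r = 0.23) and Myo5b (r = 0.21). After their overlapping neighbours, Rb1 had Map4k5 (r = 0.19) and Rbl2 had Dhx30 (r = 0.21), which the table lists under 2 spellings.

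Pooled over captures and described with no test, the share and mean of Cdkn1c also varied between groups of cells. Clustering on cell type markers gave a Sertoli-like cluster of 74 cells (Serpina5, Ptgds and Rhox8 among its leading genes), an unnamed cluster 3 of 122 cells led by Pdlim3, Acta2, Casq2 and Mfap4, an unnamed cluster 6 of 133 cells led by Shisa3, Crabp1 and Ecm1, and smaller ones. Cdkn1c reached 1 RPKM in 93.2% of cells of cluster 6, in 68% of cluster 3 and in 54.1% of Sertoli-like cells. It was found in all 32 coelomic epithelium-like cells (Upk3b, Krt19), with a mean of 272 RPKM, and in all 8 Leydig-like cells (Insl3, Cyp17a1), with a mean of 263 RPKM. These clusters are spread unevenly over the stages: 48 of the 59 E10.5 cells were in cluster 6, and 18 of 31 and 14 of 34 cells at E16.5 were Sertoli-like against 18 of 56 and 9 of 56 at E13.5.

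In the 5 captures with at least 5 cells of each, Sertoli-like cells had a mean Cdkn1c of 47.6 RPKM at E12.5, 74.7 and 66 RPKM at E13.5, and 5.35 and 5.50 RPKM at E16.5, and cluster 3 cells had 88.5, 70.9, 199, 42.2 and 35 RPKM in the same captures. The Sertoli-like cells were lower in 4 of the 5, by -0.88, -1.58, -2.77 and -2.47 on the log2 scale, and 0.07 higher in the first E13.5 capture. In the first E16.5 capture 1 of the 12 cluster 3 cells, with 341 RPKM, made up 67.4% of their summed Cdkn1c. Without that cell the cluster 3 mean was 15 RPKM and the difference -1.33, and with the highest cell of each class left out it was -1.99. The blocked difference was -1.52 ± 0.43 (SE; adjusted p = 0.0681, limma), in a comparison that called 5.53% of 11638 genes and 0 of 8 members. It passed without the first E13.5 capture, the one on a medium-sized chip (-1.92, adjusted p = 0.0385, limma, 4.4% of genes called), and over the 10 alternatives the adjusted p ran from 0.0385 to 0.332. Of the other members Cdkn2d had the next largest difference, -1.34 ± 0.67 (adjusted p = 0.285). Among the genes around them, 1 of the 9 lists had a member that passed, the immediate early gene Zfp36 (-3.24 ± 0.42).

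Within each class Cdkn1c had a lower mean at E16.5 than at E13.5 too, though neither passed on log2(mean RPKM + 1). In Sertoli-like cells the log2 difference was -3.47 ± 0.60 (SE; adjusted p = 0.238 in limma, 0.00788 with the mean of log2 values, a setting that called 0.236% of genes), and 15 of 18 and 7 of 9 cells had Cdkn1c at E13.5 against 3 of 18 and 3 of 14 at E16.5. In cluster 3 it was -1.60 ± 0.68 (adjusted p = 0.994, limma), with 14 of 25 and 21 of 29 cells against 4 of 12 and 7 of 13. Leaving out the first E13.5 capture gave -2.34, and leaving out the second gave -0.87. Neither fit called a gene (0% in Sertoli-like cells, 693 at an unadjusted p under 0.05, and 0% in cluster 3, 531 at an unadjusted p under 0.05). The difference between the classes in this change was -1.87 ± 0.96 for Cdkn1c (adjusted p = 0.802, limma, with 0% of genes called and 710 at an unadjusted p under 0.05), so a larger change in Sertoli-like cells was not shown. The part of the uneven shares of Sertoli-like cells in the difference over all cells was not tested.

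**Figure D5:**
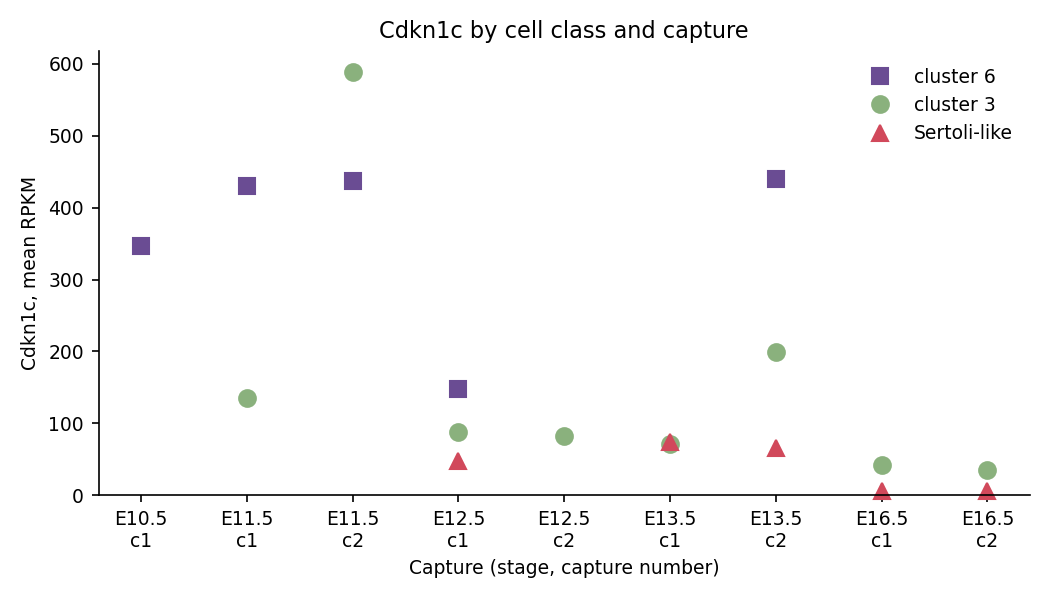
Mean Cdkn1c RPKM (linear axis) by capture in cluster 6, cluster 3 and Sertoli-like cells, for captures with at least 5 cells of the class. At E16.5 the Sertoli-like means are 5.35 and 5.50 RPKM and the cluster 3 means 42.2 and 35 RPKM, and the cluster 6 mean of the second E13.5 capture, 440.3 RPKM, includes 1 cell of 2281 RPKM.

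Cluster 6 had 347 RPKM of Cdkn1c at E10.5, 429.7 and 437 RPKM at E11.5, 148 RPKM in the first E12.5 capture and 440.3 RPKM in the second E13.5 capture, where 9 cells belonged to it. In that last capture 1 cell of 2281 RPKM made up 57.6% of the sum. Without it the mean was 210.2 RPKM, and the median of the 9 cells, 274 RPKM, lay below that of the 48 E10.5 cells, 302 RPKM. In the Sertoli-like cells Rbl2 was found in 33.8% of cells and Rbl1 in 20.3%, against 19.7% and 16.4% in cluster 3. Their log2 differences, -0.03 ± 0.69 and 0.36 ± 0.61 (SE), did not pass the test. In the 17 germ-like cells Rbl1 was found in 35.3% of cells and Cdkn1c in 82.4%, and 14 of these 17 cells were dividing cells by the rule above. Of the 17, 13 came from the second E12.5 capture. All 37 cells of that capture together had nearly the same shares, 35.1% for Rbl1 and 81.1% for Cdkn1c.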

How the data were processed

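The deposited values are RPKM per cell for 16459 genes in 400 of 435 labelled cells; the other 35 were not used. RPKM as the unit rests on the values themselves, since low values of a gene times its exonic length took a common smallest step in most cells, and it is not given in the sources used here, nor are the aligner, the counting tool and the annotation. Builds GRCm38.p3 and mm10 are named in the submitters' processing notes. Libraries came from the SMARTer kit and Nextera XT, per the labels' protocols, and keep no strand. RPKM has no molecular identifiers, so cDNA copies were not collapsed.

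Cells with fewer than 3000 genes were removed (3), and a nearly identical pair of cells at E12.5 (second capture, wells 49 and 56; r = 0.998 against 0.701 for the next closest pair) was averaged, leaving 396. No doublet caller was run. Mean RPKM per capture was fitted as log2(mean + 1) with limma 3.58.1 (trend and robust empirical Bayes) in R 4.3.3, for genes reaching a mean of 1 in 2 or more captures. Stages were 1 factor over 9 captures, and dividing and cell class comparisons were blocked by capture. Classes needed 5 cells in a capture. P-values were adjusted by Benjamini-Hochberg over all genes tested, at 0.05. The fit was also run on simulated captures with known changes and independent normal noise. That simulation had no means carried by single cells, so it does not show how the fit handles them. Clusters came from Ward linkage on 67 of 70 cell type markers, at 8 clusters. Cluster markers were left out of the class comparison, and Mki67 and Top2a out of the dividing comparison.

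All 8 members were named in every comparison. Of each gene list, up to 4 called genes were named, or up to 2 with the highest mean RPKM where none was called, and for each member the 3 genes most like it among those at 1 RPKM in at least 20% of cells. Genes outside this rule, and examples among called ones, were chosen after their values were seen. Members and lists were chosen with earlier results of these data known. Exonic lengths, positions and overlaps come from GENCODE M21 (GRCm38).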

Additional observations from a re-analysis of the deposited data

Results flagged for a closer look

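The difference between dividing and non-dividing cells of Rb1 went one way in both captures of some stages and the other way in both captures of E16.5, which was not tested. On the log2 scale it was 1.29 and 0.55 at E11.5 and 1.19 and 0.50 at E13.5, against -0.067 and -0.37 at E16.5. Cdkn1a showed such a contrast between E13.5 (0.19 and 0.0043) and E16.5 (-3.45 and -3.86), also untested. The E13.5 values lie close to 0, and at E16.5 they rest on 3 of 31 and 1 of 34 cells with Cdkn1a. Among 16 sets of capture differences, 8 genes in 2 comparisons, 0 had a capture far from the others.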

How the results depend on the processing

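Over the 78 changes of members and 1035 alternative values of them, 957 kept their direction and their side of the threshold, 14 lost a call, 6 gained one, and 58 uncalled values changed sign. The lost calls were those of Cdkn1c at E16.5, and the gained ones are given above: Cdkn1c in 4 comparisons, and Rbl1 and Cdkn2d in dividing cells. The number of genes called moved more. For E11.5 against E10.5 (47 higher, 1 lower) it was 98 (98 higher) with a pseudocount of 0.1, 12 (8 higher, 4 lower) with 5, 205 (41 higher, 164 lower) without the filter and 92 (10 higher, 82 lower) with the mean of log2 values. For E13.5 against E10.5 (118 higher, 13 lower) it was 83 with a pseudocount of 5, 257 (67 higher, 190 lower) without the filter and 238 (69 higher, 169 lower) with the mean of log2 values. Without the filter and with the mean of log2 values it was 5 and 1 for E12.5 against E11.5, 0 and 72 for E16.5 against E13.5, 5 and 243 for E16.5 against E12.5, and 34 and 1517 for Sertoli-like cells against cluster 3. In dividing cells it was 644 with the mean of log2 values and 20 in the cells between the quartiles of genes detected. With the mean of log2 values it was 24 within Sertoli-like cells and 7 within cluster 3, alternatives chosen after seeing the data, as were the fits within a class and within the 10 M read run, and the values without the highest cell. The cause was not tested.

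With 1 capture left out the counts were 6 to 48 for E11.5 against E10.5, 0 to 1 for E12.5 against E11.5, 0 to 11 for E16.5 against E13.5, 4 to 48 for E16.5 against E12.5, 41 to 126 for E13.5 against E10.5, 298 to 639 for Sertoli-like cells against cluster 3 and 0 to 9 within Sertoli-like cells. The mean share of cells over captures became, at 5 RPKM and at any value above 0, 13.8% and 71.2% for Cdkn1b, 28.2% and 72.8% for Rb1, and 9.75% and 46.1% for Rbl2, and at any value above 0 it was 29.3% for Rbl1 and 3.92% for Cdkn2c. No paired analysis was possible because capture numbers of different stages mark no shared animal or day. The blocks above are captures.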
